A study of Mus musculus with 8 samples.

Results

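Sciatic nerves that carried both the HA-NRG1 type III transgene and the mutation Q215X (HA-NRG1 type III/+:Q215X/+, hereafter the double) were compared with wild-type (WT) nerves. The comparison rests on 4 of the 8 libraries, 2 for the double and 2 for WT. It covers the 12530 genes, of 23356 listed, whose mean over all 8 libraries was at least 1 FPKM, a fragment count scaled by gene length and by library size. Differences were taken on log2(FPKM + 1) between libraries whose column names share an ending, 0 or 1, called set 0 and set 1. The mean over all 8 libraries set which genes were tested, and no difference between genotypes did.

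The remaining 4 libraries, 2 from Q215X/+ and 2 from HA-NRG1 type III/+ nerves, entered the fit and are given beside some of the results. Nerves came from F1 offspring of C57BL/6 and FVB/N at postnatal day 30. WT nerves carry neither allele, Q215X/+ nerves carry 1 mutant copy, HA-NRG1 type III/+ nerves carry the transgene, and the double carries both. The labels do not name the promoter of the transgene (the published line of this name uses the neuronal Thy1 promoter), do not say whether the mutant copy is an inserted or a targeted allele, and do not say whether a library is 1 animal or a pool. The spread behind each p-value is therefore that of libraries and may be technical.

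Myelin of peripheral nerve is a spiral of Schwann cell membrane whose wraps adhere to each other and whose lipids and proteins the cell must make in large amounts. Neuregulin 1 type III sits on the axon surface and signals through the ERBB2 and ERBB3 receptors of the Schwann cell, and its amount sets whether an axon is myelinated and how thick the sheath becomes. A transgene that raises it in neurons is therefore a way to push Schwann cells toward more myelin.

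The 4 libraries compared were alike in the breadth of genes seen. Total FPKM ran from 443733 to 530901 over the 8 libraries, and genes above 0 numbered 17131 to 17421. FPKM carry no counts, so the depth behind a value is unknown. Steps between low values gave a relative depth of 1 and 1.01 for WT and 1.02 and 0.865 for the double, less firmly for set 1. Xist and Ddx3y read the WT and double libraries as female, 1 of the 2 HA-NRG1 type III/+ libraries as male, and neither Q215X/+ library as female. Schwann cell markers were present throughout, with Sox10 at 207 and 197 FPKM in WT and 163 and 151 FPKM in the double. Skeletal muscle genes summed to 108 and 33.3 FPKM in WT and 8.12 and 13.5 FPKM in the double. They also varied within a genotype, with 6.50 and 1365 FPKM in Q215X/+ and 7.80 and 21.7 FPKM in HA-NRG1 type III/+. Red blood cell genes summed to 239 and 244 FPKM in WT and 73.4 and 178 FPKM in the double, and to 601 and 1282 FPKM in Q215X/+. All 10 tested muscle genes and all 5 tested red blood cell genes lay below WT in the double, where 54.4% of all genes did. None was called, which with 2.39% of all genes called is near the overall share. Of the 14 muscle genes listed, Mb was at 0 in 1 double library. The part of these tissues in the results below was not tested. In whole nerve, fewer cells of a type and less RNA per cell cannot be told apart.

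Nrg1, the gene of the transgene's product, lay below the level tested, with 0.204 and 0.164 FPKM in WT and 0.498 and 0.358 FPKM in the double. The double libraries were above both WT libraries, and HA-NRG1 type III/+ had 0.393 and 0.312 FPKM. RNA made in neurons reaches a nerve sample only from axons, and this low value gives no measure of transgene protein.

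Against WT, 299 of the 12530 genes (2.39%) were called in the double at an adjusted p under 0.05 from limma, with Benjamini-Hochberg adjustment over all genes. The calls split into 144 that rose (1.15%) and 155 that fell (1.24%), and 21 rises and 10 falls reached a log2 difference of 1. All 299 had the same sign within set 0 and within set 1, and in 286 the libraries of the 2 genotypes did not overlap (140 higher, 146 lower). Over all genes, both double libraries lay above both WT libraries in 14.4% and below them in 16.7%. The calls were made from these same libraries and differences. Their agreement between sets and their separation follow largely from the calling and are no separate support. The median log2 difference of all genes was -0.0134, with 45.6% of genes above 0 and 54.4% below.

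These calls depend on treating the set as a replicate block, which was the main fit because the comparison is defined within sets. Without the block, 14 genes (0.112%) were called. The 9 that rose (0.0718%) were Otop1, Lect1, Cyp2j13, Ephb1, Fgl2, Leprel1, Vtcn1, Emid1 and Ptpru, a receptor tyrosine phosphatase. The 5 that fell (0.0399%) were Slc7a2, Spint1, Cntn1, Dpysl5 and Nr2f1. Every other call named here is lost without the block. With the block, leaving out 1 double library left 9 (set 0) or 8 (set 1) calls, leaving out 1 WT library left 24 or 21, and leaving out either HA-NRG1 type III/+ library left 95. Leaving short RNA genes out and rescaling the libraries gave 513 calls, of which 75.6% were rises against 48.2% in the main fit. Otop1, Cyp2j13 and Ephb1 were called in all 19 alternatives.

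**Figure D1:**
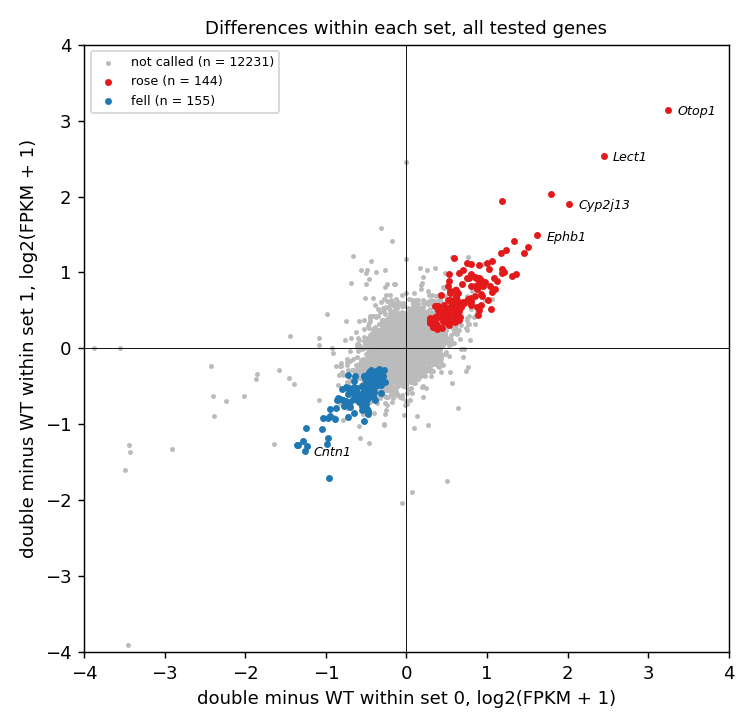
Difference between the double and WT on log2(FPKM + 1), within set 0 (horizontal axis) and within set 1 (vertical axis), 1 point per tested gene; red points rose, blue points fell and grey points were not called. All 299 called genes lie at the lower left or upper right of the origin, which calling with the set as a block favours. Otop1 lies farthest out among the rises, and 47 genes, none of them called, lie outside the axes.

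The largest rises were in genes of very different functions. The 12 largest rises and 12 largest falls were taken from calls whose libraries did not overlap and whose sign agreed in both sets. Each rise was therefore higher in both double libraries than in both WT libraries by selection. Otop1, which encodes the proton channel otopetrin 1, stood at 1.26 and 1.12 FPKM in WT and 20.5 and 17.7 FPKM in the double (log2 difference 3.19, SE 0.094, adjusted p 0.000344). Its 2 WT libraries lay close together, and the double was on average 16-fold higher. Lect1 (chondromodulin, also named Cnmd), a secreted inhibitor of vessel growth first known from cartilage, rose from 15.9 and 14.7 to 91 and 90.2 FPKM (log2 difference 2.49, SE 0.16, adjusted p 0.00466). Cyp2j13, a cytochrome P450 of the arachidonate-oxidising Cyp2j family, rose from 2.48 and 2.60 to 13.1 and 12.5 FPKM (log2 difference 1.96, SE 0.095, adjusted p 0.00255). The receptor tyrosine kinase Ephb1, which binds ephrin-B ligands, rose from 2.81 and 2.79 to 10.7 and 9.62 FPKM (log2 difference 1.56, SE 0.073, adjusted p 0.00255). In these 4 genes the libraries of a genotype differed far less from each other than the genotypes did.

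The other 8 of the 12 largest rises were smaller. The fibrinogen-like protein gene Fgl2 rose from 74.1 and 81.7 to 212 and 207 FPKM (adjusted p 0.00466), and the matrix protein gene Emid1 from 121 and 112 to 274 and 271 FPKM (adjusted p 0.00466). Leprel1 (also named P3h2), a collagen prolyl 3-hydroxylase, rose from 12.6 and 13.1 to 36.3 and 32.8 FPKM (adjusted p 0.00466). Vtcn1, which encodes the T cell co-inhibitor B7-H4, rose from 1.69 and 1.94 to 5.34 and 6.19 FPKM (adjusted p 0.011). These 4 were called with and without the replicate block. The remaining 4 of the 12 largest rises were called only with it, as the following values show. Ucn2, the stress peptide urocortin 2, rose from 0.166 and 0.0249 to 3.04 and 3.18 FPKM (adjusted p 0.0248, 0.0924 without the block). Wfdc18, a small secreted protein, rose from 0.266 and 0.122 to 1.87 and 3.33 FPKM (adjusted p 0.0326, 0.0953 without). Ucn2 and Wfdc18 reached the mean of 1 FPKM needed for testing only through the groups that carry the transgene, with WT means of 0.0956 and 0.194 FPKM, so they had to differ to be tested. The chemokine gene Cxcl14 rose from 3.78 and 2.86 to 11.1 and 9.31 FPKM (adjusted p 0.03, 0.106 without). Spp1, the matrix glycoprotein osteopontin, rose from 222 and 407 to 570.5 and 802 FPKM (adjusted p 0.027, 0.512 without), and its WT libraries were far apart.

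**Figure D2:**
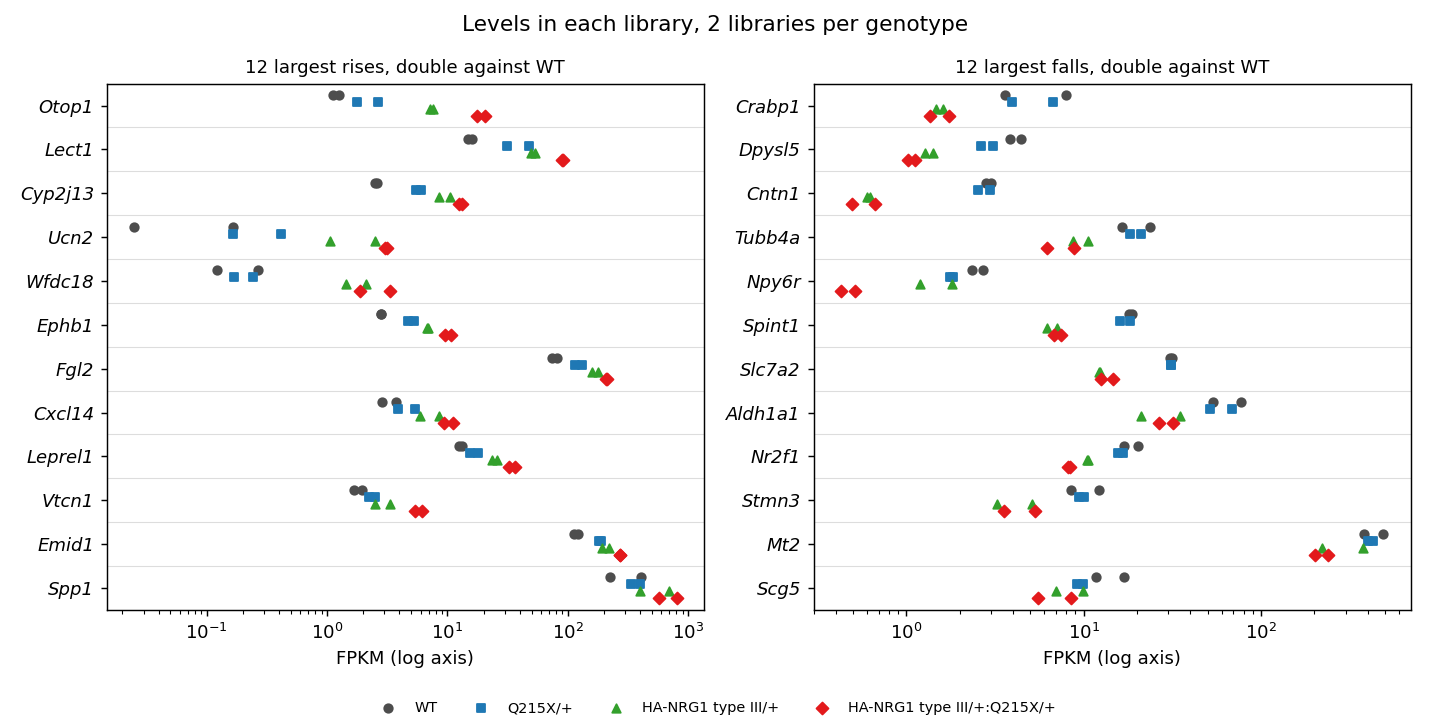
FPKM on a log axis in each of the 8 libraries for the 12 largest rises (left) and the 12 largest falls (right) of the double against WT, with 1 symbol and colour per genotype and 2 libraries each. Both double libraries lie on one side of both WT libraries in every row, which was a condition for being shown. In the row of Otop1 the double sits at 20.5 and 17.7 FPKM against 1.26 and 1.12 in WT.

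Promoter sequences are shown for the 3 genes called under every setting, to let their upstream letters be read side by side. Each is the 250 bases before the RefSeq transcript start on GRCm38.p6, written 5′ to 3′ on the strand of the gene. Otop1 lies at chr5:38277404-38304217, Ephb1 at chr9:101922128-102354693 and Cyp2j13 at chr4:96042660-96077566, and the windows are chr5:38277154-38277403 (plus strand), chr9:102354694-102354943 (minus strand) and chr4:96077541-96077790 (minus strand, 1 of 2 windows whose starts lie close together).
Otop1: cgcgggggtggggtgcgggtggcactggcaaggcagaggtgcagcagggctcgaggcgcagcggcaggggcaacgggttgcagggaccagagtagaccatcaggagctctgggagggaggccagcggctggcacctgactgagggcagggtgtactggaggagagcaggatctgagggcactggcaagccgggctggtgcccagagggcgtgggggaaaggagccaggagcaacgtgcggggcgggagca
Ephb1: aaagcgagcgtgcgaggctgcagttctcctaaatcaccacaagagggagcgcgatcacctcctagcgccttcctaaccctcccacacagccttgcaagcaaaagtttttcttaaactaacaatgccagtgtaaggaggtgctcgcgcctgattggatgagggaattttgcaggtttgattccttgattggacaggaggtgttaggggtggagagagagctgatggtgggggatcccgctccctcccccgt
Cyp2j13: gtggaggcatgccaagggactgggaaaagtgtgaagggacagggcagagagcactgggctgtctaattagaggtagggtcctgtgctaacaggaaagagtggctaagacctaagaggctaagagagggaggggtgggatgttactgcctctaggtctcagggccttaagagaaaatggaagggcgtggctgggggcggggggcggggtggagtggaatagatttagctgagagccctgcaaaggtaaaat
The window of Otop1 was 70% G and C, that of Ephb1 54% and that of Cyp2j13 55.2%. None held the EGR letters GCGNGGGCG, the ETS letters CCGGAAG or the AP-1 letters TGANTCA on either strand, so no base is in capitals. Of 32817 windows of the same length from RefSeq starts, 4.7%, 6.9% and 6.75% held them. These letters being absent from a window says nothing about the factors.

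No other tested member of the Cyp2j or EphB families was called, which with 2.39% of all genes called is near the overall share. Of the other Cyp2j genes, Cyp2j6 had 36.3 and 36.1 FPKM in WT and 40.4 and 37.3 FPKM in the double and Cyp2j9 27.6 and 33.1 FPKM in WT and 34.7 and 33 FPKM in the double, both not called. The ephrin-B ligand gene Efnb2 had 6.06 and 4.62 FPKM in WT and 7.68 and 6.83 FPKM in the double (adjusted p 0.112). Of 8 EphB receptor and ephrin-B genes tested only Ephb1, named above for its large rise, was called, where 2.39% of all genes were.

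The 12 largest falls included 5 that were called with and without the replicate block. Dpysl5, which encodes the growth cone protein CRMP5, fell from 4.43 and 3.87 to 1.12 and 1.02 FPKM (log2 difference -1.31, SE 0.080, adjusted p 0.00466). Cntn1, the adhesion protein contactin 1 found at paranodes, fell from 2.99 and 2.80 to 0.662 and 0.491 FPKM (log2 difference -1.31, SE 0.093, adjusted p 0.0047). Cntn1 reached the mean of 1 FPKM needed for testing only through WT and Q215X/+ (mean 2.76 FPKM in Q215X/+). Its mean in HA-NRG1 type III/+ was 0.609 FPKM. Slc7a2, which carries arginine and lysine into cells, fell from 30.9 and 31.4 to 12.5 and 14.7 FPKM (log2 difference -1.14, SE 0.073, adjusted p 0.00466). Spint1, a Kunitz-type inhibitor of membrane serine proteases, fell from 18.1 and 18.7 to 6.83 and 7.46 FPKM (log2 difference -1.25, SE 0.089, adjusted p 0.0047). The nuclear receptor gene Nr2f1 (COUP-TFI) fell from 17 and 20.2 to 8.16 and 8.42 FPKM (log2 difference -1.07, SE 0.073, adjusted p 0.00466). In all 5, the libraries of the 2 genotypes did not overlap, as the choice of the 12 required.

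The other 7 of the 12 largest falls were called only with the replicate block. The beta-tubulin gene Tubb4a fell from 23.8 and 16.4 to 8.77 and 6.22 FPKM (adjusted p 0.00466, 0.134 without the block). The stathmin gene Stmn3, a microtubule regulator, fell from 8.45 and 12.2 to 3.57 and 5.32 FPKM (adjusted p 0.017, 0.304 without). Scg5, a chaperone of prohormone convertase, fell from 11.8 and 16.9 to 5.54 and 8.46 FPKM (adjusted p 0.0175, 0.353 without). In each of these 3 genes the double libraries were below both WT libraries, as the choice of the 12 required. Aldh1a1, which makes retinoic acid, fell from 53.9 and 77.2 to 26.7 and 31.8 FPKM (adjusted p 0.0128, 0.346 without). Crabp1, which binds retinoic acid in the cytoplasm, fell from 3.61 and 7.92 to 1.37 and 1.74 FPKM (adjusted p 0.0493, 0.342 without), and its WT libraries were far apart. The neuropeptide Y receptor gene Npy6r fell from 2.35 and 2.69 to 0.426 and 0.516 FPKM (adjusted p 0.0175, 0.0542 without), and the metallothionein gene Mt2, which encodes a metal-binding protein, fell from 490.4 and 381 to 238 and 200.9 FPKM (adjusted p 0.038, 0.371 without).

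Genes on the list of compact and non-compact myelin were mostly lower in the double, by small amounts. Of 28 members tested, 22 lay below WT, against 54.4% of all genes, and 6 above. The median log2 difference was -0.22, and 17 had both double libraries below both WT libraries against 16.7% of all genes. Of the list, 5 fell (1.24% of all genes did) and 2 rose (1.15% of all genes) with the block, and none was called without it. Cnp, an enzyme and scaffold of non-compact myelin, fell from 844 and 963 to 454 and 503 FPKM (log2 difference -0.91, SE 0.064, adjusted p 0.0047). Its log2 difference from WT was -0.89 in HA-NRG1 type III/+ and -0.072 in Q215X/+. The membrane proteolipid genes Pllp and Mal fell from 427 and 526 to 302 and 341 FPKM (adjusted p 0.021) and from 1376 and 1519 to 1010.4 and 1123 FPKM (adjusted p 0.0437). Fa2h, which hydroxylates the fatty acids of myelin sphingolipids, fell from 371 and 374 to 280.2 and 252 FPKM (adjusted p 0.0295). Sh3tc2, an endosomal protein needed for myelin and mutated in a demyelinating neuropathy, fell from 32.9 and 31 to 25.7 and 25.5 FPKM (adjusted p 0.047).

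The 2 members that rose were Pmp2 and S100b. Pmp2, a fatty acid carrier in compact myelin, rose from 1062 and 957 to 2210.2 and 2136 FPKM (log2 difference 1.11, SE 0.14, adjusted p 0.0229). In HA-NRG1 type III/+ it stood at 2869.8 and 2116 FPKM and in Q215X/+ at 1365 and 1476 FPKM. S100b, a calcium-binding Schwann cell protein, rose from 356 and 626 to 652 and 913 FPKM (adjusted p 0.0264), with the WT library of set 1 near the double library of set 0. The abundant members Mbp and Pmp22 were not called. Mbp stood at 16688 and 18230.5 FPKM in WT and 15558 and 15680.1 FPKM in the double (adjusted p 0.629) and Pmp22 at 20522 and 19234 FPKM in WT and 17773 and 16569 FPKM in the double (adjusted p 0.522). The sign of the list median held under each rescaling, with the median between -0.24 and -0.13 over the 19 alternatives. The balance of calls did not: with short RNA genes left out and the libraries rescaled, 4 members rose and 4 fell.

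Transcription factors of myelination showed no common shift. Of 23 tested, 15 lay below and 8 above WT, and 1, Nr2f1, was called. Over all genes 54.4% lay below and 2.39% were called. The median of -0.069 became 8.31e-05 with short RNA genes left out and the libraries rescaled. Egr2, the master regulator of myelin genes, had 71.9 and 49.3 FPKM in WT and 56.9 and 47.3 FPKM in the double, with overlapping groups (adjusted p 0.306). Sox10, which specifies the Schwann cell lineage, had an adjusted p of 0.0584 for a log2 difference of -0.36, and Pou3f1, which acts at the promyelinating stage, had 22.2 and 16.3 FPKM in WT and 18.2 and 10.8 FPKM in the double, with overlapping groups (adjusted p 0.0577). Egr1, high in immature cells, had 3.59 and 4.02 FPKM in WT and 7.03 and 7.45 FPKM in the double (adjusted p 0.0571).

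Genes of cholesterol synthesis and uptake were lower in the double with 1 exception. Cholesterol is a main lipid of myelin and Schwann cells make most of their own. Of 24 members tested, 23 lay below WT, against 54.4% of all genes. Both double libraries lay below both WT libraries in 16, against 16.7% of all genes, and the median was -0.29. Of the list, 2 fell at the threshold with the block, where 1.24% of all genes fell, and none was called without it. Insig1, which retains the SREBP pathway in the endoplasmic reticulum and is itself a target of it, fell from 103 and 89.4 to 71.1 and 61.9 FPKM (adjusted p 0.0341). Idi1, an isomerase of the mevalonate pathway, fell from 56.2 and 56 to 40.6 and 45 FPKM (adjusted p 0.0495). Hmgcs1, an early enzyme of the mevalonate pathway, had 935 and 844 FPKM in WT and 736 and 722 FPKM in the double (adjusted p 0.132). The exception was Scap, the escort of SREBP, with 37.9 and 33.1 FPKM in WT and 42.8 and 37.4 FPKM in the double and overlapping groups.

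The list median was -0.35 within set 0 and -0.18 within set 1, and -0.37 to -0.17 over the alternatives. Against the same WT libraries the median was 0.042 in HA-NRG1 type III/+ and -0.20 in Q215X/+. The double minus HA-NRG1 type III/+ median was -0.32, and no member was called in that comparison. For Idi1 this difference was -0.43 (95% interval -0.60 to -0.27), and for Insig1 -0.41 (95% interval -0.60 to -0.22), both intervals of single genes with no adjustment.

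Fatty acid and sphingolipid genes were split in direction. Of 26 tested, 17 lay below and 9 above WT, where 54.4% of all genes lay below. The median of -0.068 turned to 0.016 with short RNA genes left out and the libraries rescaled. The fatty acid desaturase genes Fads2 and Fads1 fell from 130.3 and 112 to 84.1 and 76.4 FPKM (adjusted p 0.0148) and from 169 and 149.8 to 131 and 120.5 FPKM (adjusted p 0.0353). Fa2h, given above, also fell, and Pmp2 rose.

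**Figure D3:**
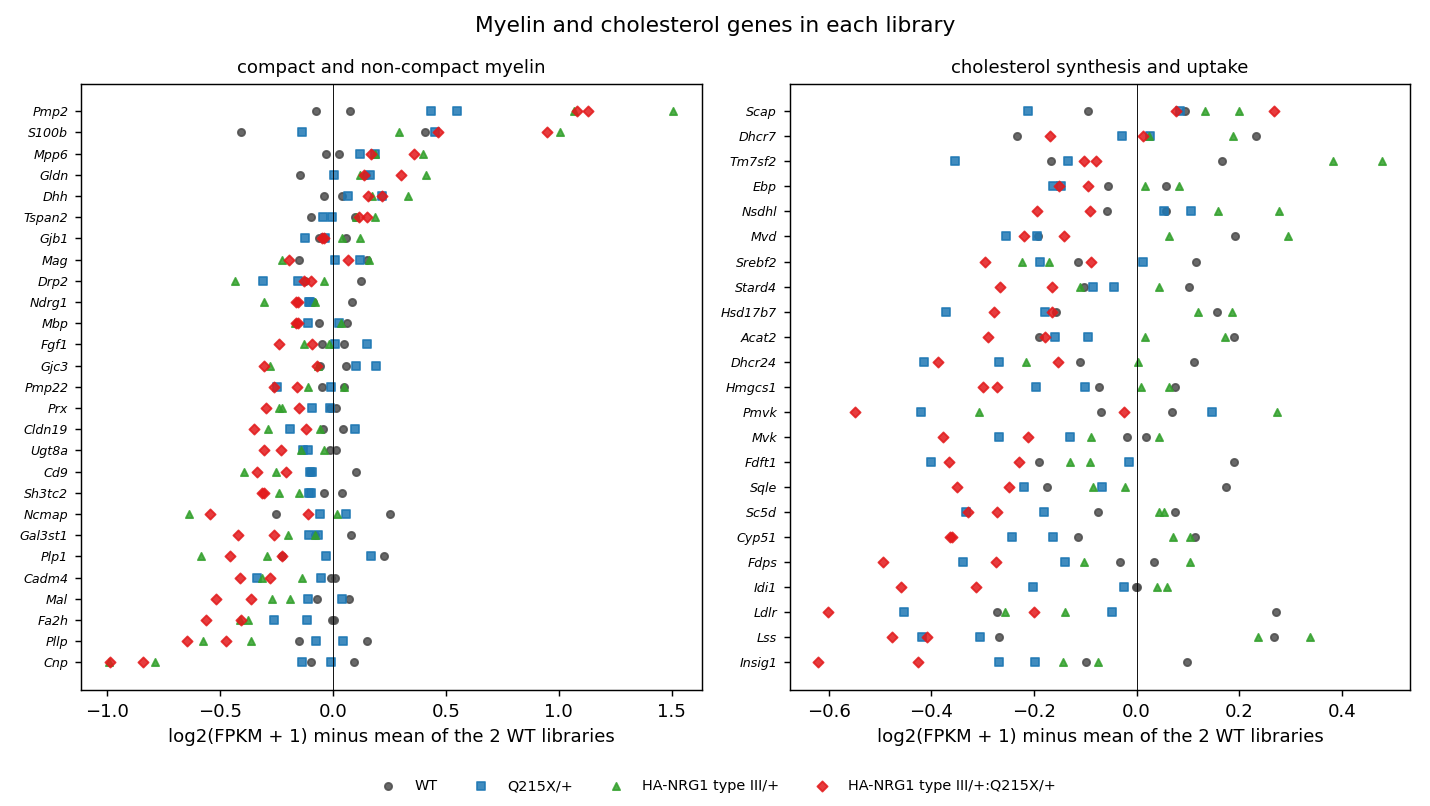
Log2(FPKM + 1) of each library minus the mean of the 2 WT libraries, for 27 of the 28 tested myelin genes (left) and 23 of the 24 tested cholesterol genes (right), with 1 symbol and colour per genotype. Most myelin genes lie left of 0 in the double while Pmp2 and S100b lie to the right, and 22 of the 23 cholesterol genes shown have a mean left of 0 in the double.

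Genes linked to immature or repair Schwann cells rose in 4 cases, and Jun, Ngfr and Shh were not among them. Of 17 tested, 10 lay above and 7 below WT (median 0.044), and the 4 calls stand beside 1.15% of all genes that rose. None of the 4 was called without the block, and Ucn2 was tested only because it is high with the transgene. Besides Ucn2, the extracellular matrix gene Tnc (tenascin C) rose from 2.48 and 1.36 to 4.86 and 3.48 FPKM (adjusted p 0.0175), and the engulfment receptor gene Megf10 rose from 3.43 and 3.15 to 7.70 and 6.65 FPKM (adjusted p 0.0211). The transcription factor gene Mycn rose from 2.82 and 5.03 to 6.14 and 7.57 FPKM (adjusted p 0.0416). Jun, the central factor of the repair state, stood at 18.7 and 15.6 FPKM in WT and 20.7 and 15 FPKM in the double with overlapping groups. Ngfr, the p75 neurotrophin receptor, had 29.2 and 23.8 FPKM in WT and 36.4 and 25.3 FPKM in the double (adjusted p 0.251), and Shh lay below the level tested with 0.134 and 0.142 FPKM in WT and 0.417 and 1.02 FPKM in the double. Of 14 genes of non-myelinating cells, Adamtsl1, a matrix protein, rose from 14.5 and 12 to 27.3 and 23.7 FPKM (adjusted p 0.0152), and the sodium channel gene Scn7a fell from 77.5 and 96.4 to 59.2 and 67.8 FPKM (adjusted p 0.0407). Beside these calls, 1.15% of all genes rose and 1.24% fell.

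The main neuregulin receptors of Schwann cells were not called. Erbb3, which binds neuregulin, had 46 and 36.7 FPKM in WT and 33.7 and 30.9 FPKM in the double (adjusted p 0.0704), and its kinase partner Erbb2 had 20.6 and 19.1 FPKM in WT and 16.9 and 16.6 FPKM in the double (adjusted p 0.256). In both genes the double libraries lay below the WT libraries. Erbb4, another neuregulin receptor, rose from 3.74 and 3.02 to 6.23 and 5.04 FPKM (adjusted p 0.0159). The sheddase gene Adam17 had 33.3 and 34.2 FPKM in WT and 42.9 and 43.5 FPKM in the double (adjusted p 0.0879) and the neuregulin-cleaving protease gene Bace1 23 and 21.8 FPKM in WT and 23.2 and 20.7 FPKM in the double (adjusted p 0.882). Of 11 members of the ERBB list tested, Erbb4 was the only one called, where 2.39% of all genes were called.

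Downstream of ERBB receptors, Dusp4, a phosphatase that is induced by ERK and acts on it, rose from 4.75 and 4.51 to 12.1 and 9.97 FPKM (log2 difference 1.09, SE 0.18, adjusted p 0.0442). Of 16 ERK feedback and ETS target genes tested, 11 lay above WT, against 45.6% of all genes, and 5 below, with a median of 0.17. Dusp4 was the only call, where 2.39% of all genes were called. Etv1 had 4.81 and 4.74 FPKM in WT and 6.05 and 5.47 FPKM in the double (adjusted p 0.135), and Dusp6 and Spry2 overlapped between the groups. None of 12 immediate early genes was called, which is near that overall share.

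None of 23 genes of the unfolded protein response was called, which with 2.39% of all genes called is near the overall share, and the median was -0.0077, a value whose sign turned under 5 of 19 alternatives. Hspa5, the chaperone BiP, had 179.8 and 161 FPKM in WT and 168 and 170.4 FPKM in the double, and Ddit3, the factor CHOP, had 21.2 and 24.9 FPKM in WT and 18.1 and 22.6 FPKM in the double (adjusted p 0.196). Of 17 ATF4 target genes, Slc3a2, the heavy chain of amino acid transporters, fell from 97.3 and 93.7 to 80.7 and 68.8 FPKM (adjusted p 0.045). This was the only fall called on that list, where 1.24% of all genes fell. None of 16 nonsense-mediated decay genes was called, which is also near the overall share of 2.39%.

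Part of the macrophage genes rose. Macrophages live in the endoneurium and outer layers of a nerve and clear myelin debris. Of 28 members tested, 22 lay above WT, against 45.6% of all genes, and 6 below (median 0.18, and 0.14 to 0.29 over the alternatives). The list median against the same WT libraries was 0.18 in HA-NRG1 type III/+ and 0.023 in Q215X/+. With the block 4 rose in the double, against 1.15% of all genes. The fractalkine receptor gene Cx3cr1 rose from 6.25 and 8.58 to 12.7 and 16.4 FPKM (log2 difference 0.89, SE 0.10, adjusted p 0.0187). Ms4a7 rose from 2.69 and 5.13 to 6.06 and 8.91 FPKM (adjusted p 0.0128), the lysosomal protease gene Ctss from 19.9 and 23.4 to 33.2 and 36.1 FPKM (adjusted p 0.0248), and the lipid receptor gene Trem2 from 6.65 and 6.97 to 10.6 and 10.8 FPKM (adjusted p 0.045). In each of these 4, the higher WT library was below the lower double library.

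Csf1r, C1qa, Lyve1 and Cd163 were not called, and they lay on both sides of WT. The growth factor receptor gene Csf1r had 41.6 and 30.4 FPKM in WT and 49.7 and 41.9 FPKM in the double (adjusted p 0.251), higher in both double libraries. The complement gene C1qa had 89.5 and 110.3 FPKM in WT and 100.1 and 113 FPKM in the double, higher within each set but with overlapping groups. Lyve1, a marker of macrophages near vessels and in the epineurium, lay lower, with 12.3 and 14.7 FPKM in WT and 8.67 and 10.7 FPKM in the double (adjusted p 0.117), as did Cd163 with 13.5 and 10.8 FPKM in WT and 9.43 and 9.99 FPKM in the double (adjusted p 0.248). The list summed to 807 and 968 FPKM in WT and 854 and 1093 FPKM in the double. H2-DMb2, a chaperone of peptide loading, was the only call of 7 MHC class II genes, where 2.39% of all genes were called. It rose from 10.03 and 8.21 to 15.6 and 19.96 FPKM (adjusted p 0.0404), whereas Cd74, the invariant chain, had 120.4 and 142 FPKM in WT and 107 and 112 FPKM in the double. Cxcl10, an interferon-induced chemokine gene, rose from 1.85 and 1.21 to 3.11 and 3.38 FPKM (adjusted p 0.0454).

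Axonal genes fell in 3 of 15 cases, against 1.24% of all genes. Of the 15 tested, 10 lay below and 5 above WT, with a median of -0.36 that became 0.084 over the members with a mean of at least 5 FPKM. Besides Dpysl5, the kinesin gene Kif5a fell from 10.3 and 15.8 to 5.85 and 7.98 FPKM (adjusted p 0.0272) and the neurofilament gene Nefm from 3.0 and 4.26 to 1.59 and 2.38 FPKM (adjusted p 0.035). The other neurofilament genes Nefl and Nefh had 4.57 and 8.25 FPKM in WT and 2.23 and 3.80 FPKM in the double (adjusted p 0.0564), and 4.33 and 6.39 FPKM in WT and 1.86 and 2.95 FPKM in the double (adjusted p 0.0564). Uchl1 had 38.2 and 53.7 FPKM in WT and 53.8 and 60.4 FPKM in the double and Thy1 17.3 and 11.4 FPKM in WT and 23.5 and 15.7 FPKM in the double, and neither was called. The median of the 15 axonal genes against the same WT libraries was -0.49 in HA-NRG1 type III/+ and -0.041 in Q215X/+. Of 14 genes of the node and its flanks, Cntn1 and the ankyrin G gene Ank3 fell in the double, beside 1.24% of all genes. Ank3 went from 37.4 and 36.9 to 27.5 and 26 FPKM (adjusted p 0.035). Skeletal muscle genes, which come from outside the nerve, were lower in the same 2 libraries, as given above.

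Genes of the nerve's other cells changed one at a time. Over all genes, 1.15% rose, 1.24% fell and 45.6% lay above WT, and the following counts stand beside these shares. Of 19 endothelial genes, the lipid transporter gene Mfsd2a fell from 73.3 and 64.4 to 46.2 and 42.3 FPKM (adjusted p 0.0132) and the VEGF receptor gene Kdr from 10.6 and 10.7 to 8.11 and 8.08 FPKM (adjusted p 0.0492), while Cdh5 and Pecam1 were not called. Of 19 fibroblast genes, the proteoglycan gene Lum rose from 398 and 418 to 568 and 649 FPKM (adjusted p 0.0214) and Ly6a fell from 38.9 and 79.3 to 26.7 and 40.5 FPKM (adjusted p 0.03), the latter with overlapping groups. None of 13 perineurial, 13 pericyte and smooth muscle or 18 cell cycle genes was called, which with 2.39% of all genes called is near the overall share. Of the 13 perineurial genes 10 lay above WT, among them Msln with 20.9 and 20.5 FPKM in WT and 28.2 and 32.4 FPKM in the double (adjusted p 0.0705).

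Of 19 matricellular genes tested, 9 lay above and 10 below WT, with a median of -0.027, and 3 rose against 1.15% of all genes. Besides Tnc and Spp1 this was Thbs2 (thrombospondin 2), from 27.2 and 20.2 to 47.3 and 39.3 FPKM (log2 difference 0.85, SE 0.066, adjusted p 0.00677). The laminin receptor gene Itga7 rose from 60.8 and 60.8 to 74.4 and 78 FPKM (adjusted p 0.0456), and Timp1, an inhibitor of metalloproteases, from 3.99 and 6.01 to 9.46 and 10.7 FPKM (adjusted p 0.0479). The membrane metalloprotease gene Mmp17 fell from 8.86 and 11.2 to 5.85 and 6.78 FPKM (adjusted p 0.0183). Of 13 Hippo pathway genes tested, 5 lay above and 8 below WT, where 54.4% of all genes lay below. Amotl2 and Tead4 fell, beside 1.24% of all genes, from 47.7 and 48.2 to 30.2 and 31.5 FPKM (adjusted p 0.021) and from 7.68 and 7.36 to 5.50 and 5.04 FPKM (adjusted p 0.0445). Of 15 Wnt antagonists and readouts, 8 lay above and 7 below WT. Frzb and Nkd2 rose, beside 1.15% of all genes, from 36.7 and 38.7 to 58.2 and 50.6 FPKM (adjusted p 0.0416) and from 2.97 and 3.05 to 4.73 and 4.85 FPKM (adjusted p 0.0291).

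**Figure D4:**
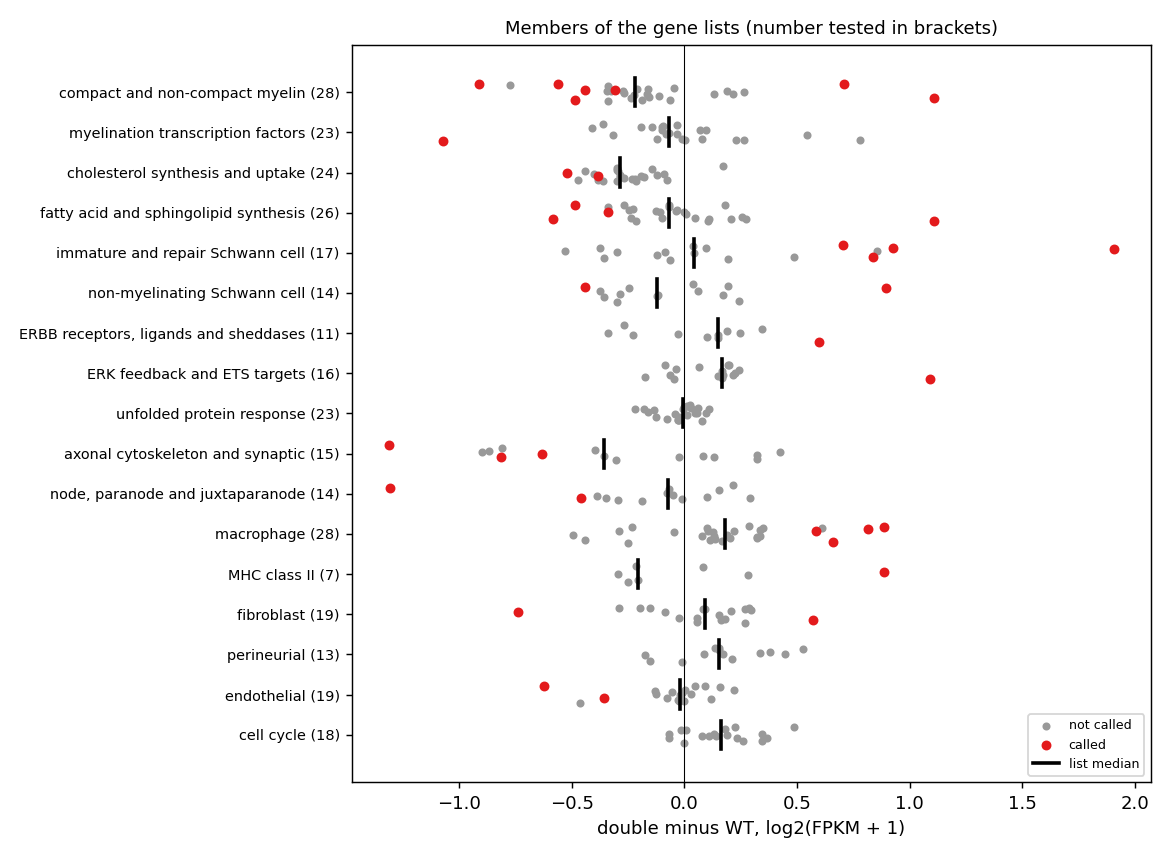
Log2 difference between the double and WT for each tested member of 17 of the gene lists, 1 row per list, with called members in red and a black bar at the list median. The bars of the cholesterol and axonal lists lie farthest left, at -0.29 and -0.36, and most lists hold members on both sides of 0.

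Set beside the single genotypes, which share the WT libraries with it, the double had 299 calls, HA-NRG1 type III/+ 265 (2.11%) and Q215X/+ 1 (0.00798%). Without the replicate block these were 14, 8 (4 rises and 4 falls, 0.0319% each) and 1. In all 12 of the largest rises the genotype means stood in the order WT, Q215X/+, HA-NRG1 type III/+, double. Otop1 had 2.64 and 1.76 FPKM in Q215X/+ and 7.65 and 7.17 FPKM in HA-NRG1 type III/+, and its log2 differences from WT were 0.53, 1.94 and 3.19 for the mutant, the transgene and the double. For Lect1 they were 1.28, 1.69 and 2.49, and for Ephb1 0.66, 1.04 and 1.56. Of the 12 largest falls, 9 were within 0.2 of WT in Q215X/+. Cntn1 had differences of -0.054, -1.27 and -1.31, and Slc7a2 of -0.00079, -1.27 and -1.14. These genes were named for their change in the double, so the orders are descriptions.

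Whether the double differs from HA-NRG1 type III/+ was tested in the same fit. No gene was called with limma, with or without the block, while 568 genes with the block and 161 without it had an unadjusted p under 0.05. The difference was 1.26 (95% interval 1.03 to 1.48) for Otop1, with an adjusted p of 0.103. It was 0.79 (95% interval 0.53 to 1.06) for Vtcn1, 0.52 (95% interval 0.34 to 0.70) for Ephb1 and -0.75 (95% interval -1.10 to -0.41) for Npy6r. For Ly9, a surface receptor of lymphocytes that rose from 5.01 and 4.71 to 6.88 and 6.77 FPKM against WT (adjusted p 0.03), it was -0.49 (95% interval -0.64 to -0.35). Of the 299 genes called against WT, 84 had an unadjusted p under 0.05 here, beside the 568 of all 12530 genes with the block. Those 299 were called from the same double libraries, so their count is no separate support for a difference. The named genes were chosen for extreme values in the same double libraries, so their intervals are descriptions. For Cntn1, Slc7a2 and Spint1 it spanned 0, at -0.032 (95% interval -0.26 to 0.19), 0.13 (95% interval -0.048 to 0.31) and 0.090 (95% interval -0.13 to 0.31). These intervals allow differences of either kind for the genes that span 0, and the test does not show that they are alike.

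The interaction asked whether the double departs from the sum of the 2 single differences. A single gene (1 of 12530, 0.00798%) was called, a short RNA gene that was high only in Q215X/+. Among the named genes the interaction was 0.72 (95% interval 0.40 to 1.05) for Otop1, 0.54 (95% interval 0.17 to 0.92) for Vtcn1 and -0.54 (95% interval -0.87 to -0.21) for Cyp2j13, each with an adjusted p of 0.965. It was -0.14 (95% interval -0.39 to 0.11) for Ephb1 and 0.022 (95% interval -0.30 to 0.34) for Cntn1. Ube2l6, Bpgm, Iigp1 and Fam220a had the smallest p over all tested genes, with predicted, sex-linked and short RNA genes left out. None of them was called. Their interactions were -0.64 (95% interval -0.82 to -0.47), -1.23 (95% interval -1.64 to -0.81), 0.87 (95% interval 0.54 to 1.19) and -0.46 (95% interval -0.63 to -0.28). These intervals carry no adjustment, and the choice by smallest p favours intervals that miss 0. Ube2l6, an enzyme of the interferon-induced ISG15 pathway, had 34.2 and 46.7 FPKM in Q215X/+ and 16.7 and 22.5 FPKM in the double. Bpgm, a red blood cell enzyme, had 32 and 51.5 FPKM in Q215X/+ and 12.1 and 15.4 FPKM in the double. Red blood cell genes were higher in Q215X/+ too, at the sums given above, and their part in this value was not tested. Both Q215X/+ libraries were male and both double libraries female, so sex and genotype cannot be told apart between them.

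**Figure D5:**
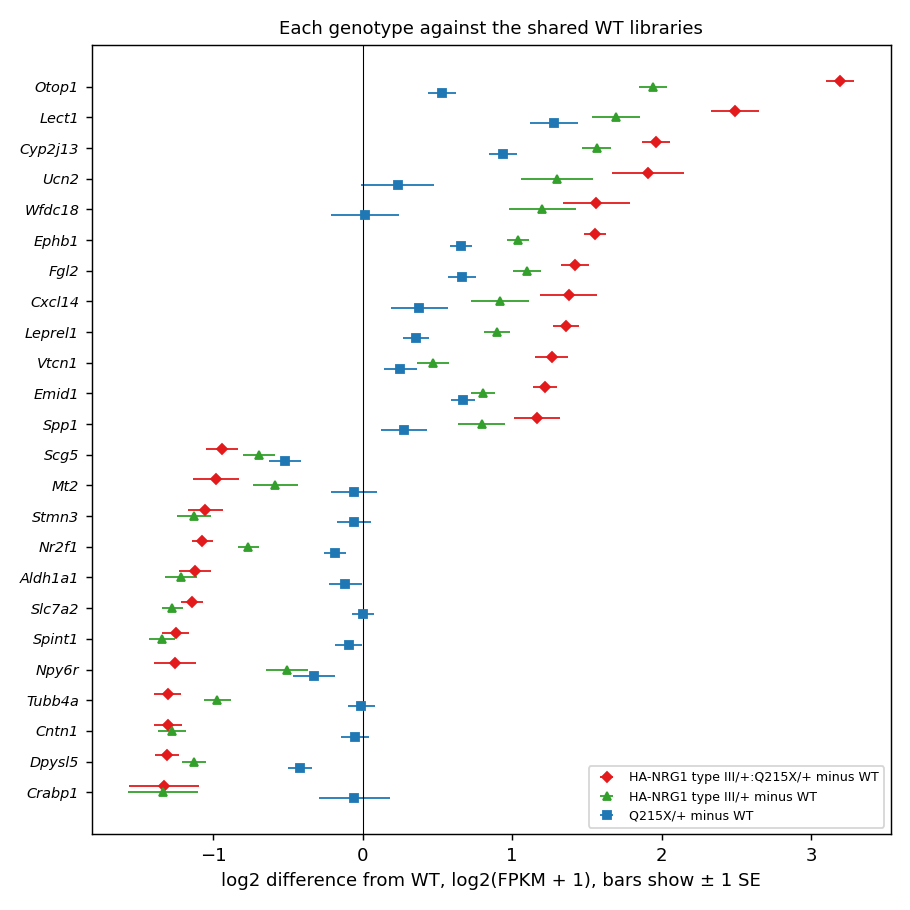
Log2 difference from WT with its standard error for the 12 largest rises and 12 largest falls, for the double (red diamonds), HA-NRG1 type III/+ (green triangles) and Q215X/+ (blue squares). For Otop1 the 3 values are 3.19, 1.94 and 0.53, while for Slc7a2 they are -1.14, -1.27 and -0.00079.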

How the data were processed

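Poly(A) RNA of sciatic nerve was sequenced on a HiSeq2500 after TruSeq library preparation, per the labels' protocols. The deposited table holds 1 FPKM value per gene and library. TopHat2 2.0.9, Cufflinks 2.2.0 and mm10 are named in the submitters' processing notes, with no role given. For annotation, strand and filters, nothing is given in the sources used here. Columns of the double and of HA-NRG1 type III/+ carry a stem that the labels do not define and were assigned by elimination. All 8 columns were used (0 were left out).

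Values were tested as log2(FPKM + 1) with limma 3.58.1 in R 4.3.3, with 4 group means and the column ending as a replicate block, which leaves 3 residual degrees of freedom, a trended prior and Benjamini-Hochberg adjustment over all 12530 genes. A gene is called at an adjusted p under 0.05. A fold on this scale understates the change of low genes. The labels do not tie the column endings to batches. Libraries with the same ending deviated together, with correlations from 0.118 to 0.304 in the 6 pairs of genotypes. An exact permutation test of 2 against 2 libraries cannot go below p = 0.333. On simulated data the fit recovered 65.1%, 95.5% and 97.2% of genes changed by 0.5, 1 and 2 log2 units in the double against WT. It called 11 unchanged genes among the 12482 in that simulation. Only genes at higher levels were changed there, and the simulated set effect and spread were taken from the same model with the block. These shares therefore do not cover low genes and do not test the block.

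Named genes were 12 always given, the 12 largest rises and falls among calls whose groups do not overlap, up to 4 called members of each of 36 lists (otherwise the 2 of smallest p) and the 4 of smallest p in the interaction and in the double against HA-NRG1 type III/+. Predicted, sex-linked and short RNA genes (the prefix Rn only before digits) were left out. Other members were named after their values were seen. The members and lists were chosen with earlier results of these data known. Sequences come from RefSeq on GRCm38.p6, to which all 94 named genes matched. Some items, and 1 alternative scaling that was chosen after seeing the data, are not reported here.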

Additional observations from a re-analysis of the deposited data

Results flagged for a closer look

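The gene of microRNA 135a-1 (Mir135a-1) was called in the interaction of transgene and mutation, which flagged it as a difference between genotypes under the same contrast. It was listed at 0 in both WT, both HA-NRG1 type III/+ and both double libraries and at 148 and 185 FPKM in the Q215X/+ libraries. It was therefore tested only through Q215X/+. The same gene was the single call of Q215X/+ against WT (adjusted p 4.49e-06 from limma). The interaction was -7.38 on log2(FPKM + 1), with an SE of 0.15 and an adjusted p of 3.83e-05 from limma. Hairpin genes are short, FPKM divide by gene length, and the number of reads behind these values is unknown.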

How the results depend on the processing

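The count of 299 calls between the double and WT moved to 14 without the replicate block, 54 with no filter on low values, 513 with short RNA genes left out and the libraries rescaled (the 2 changes were made together throughout), 98 with a term for sex, 195 without the variance trend and 31 with only the 4 libraries compared. Sex differed within a genotype only in HA-NRG1 type III/+, so the sex term was fitted from its 2 libraries alone. It acts much as leaving out the male library of that genotype does and is no separate check on sex. Leaving out 1 library gave 8 to 241 calls. Double against HA-NRG1 type III/+ went from 0 to 1 with short RNA genes left out, 1 with 4 libraries, 5 with the sex term and 0 to 8 without 1 library. HA-NRG1 type III/+ against WT, with 265 calls, had 8 without the block, 0 with no filter, 403 with short RNA genes left out, 11 with the sex term, 2 with 4 libraries and 4 to 221 without 1 library. Q215X/+ against WT, with 1 call, had 2 with no filter, 3 at a mean of at least 5 FPKM, 9 with the sex term, 8 with 4 libraries and 1 to 20 without 1 library. The interaction, with 1 call, had 0 with short RNA genes left out, 9 with the sex term and 3 to 12 without 1 library, and no fit with 4 libraries was made. Of 65 named genes called against WT, none changed direction in the 19 alternatives, 13 were called without the replicate block, and 5 without either double library. Pseudocounts of 0.1 and 0.5 kept all 65, and rescaling by median ratio kept 63. The single interaction call of the main fit was a short RNA gene, so leaving such genes out removed it. The cause of the other shifts was not tested. Medians of 14 of 36 lists kept their sign in all 19 alternatives.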

Other observations

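Among the 299 genes called between the double and WT, others outside the lists stood out after their values were seen. Gpr34, a lysophospholipid receptor known from microglia, rose from 3.77 and 4.23 to 7.57 and 9.02 FPKM (adjusted p 0.0212), and P2ry12, a nucleotide receptor, from 7.86 and 8.16 to 12.7 and 11.5 FPKM (adjusted p 0.021). In both genes the double libraries were above the WT libraries, and neither was called without the replicate block.

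The secreted protease inhibitor gene Serpine2 rose from 87.3 and 74.9 to 164 and 144 FPKM (adjusted p 0.0119), and the secreted and membrane-bound protein gene Scube1 from 18.4 and 14.4 to 37.8 and 32.6 FPKM (adjusted p 0.00459). Ptpru rose from 3.02 and 3.13 to 7.17 and 7.56 FPKM (adjusted p 0.00466, 0.0157 without the block). Mt1, the neighbour of Mt2 in the metallothionein family, fell from 594 and 569.8 to 323 and 329.9 FPKM (adjusted p 0.00677). Syp, a synaptic vesicle protein gene, fell from 13.3 and 13.8 to 8.64 and 8.21 FPKM (adjusted p 0.0119), Cplx1 from 3.30 and 4.35 to 1.55 and 2.78 FPKM (adjusted p 0.0341) and the kinesin gene Kif5c from 17.9 and 25.6 to 12.1 and 14.8 FPKM (adjusted p 0.0416). Of the calls, 12 were predicted genes and 0 were short RNA genes.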
